A study of Homo sapiens with 8 samples.

Results

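JMJD6 and 30 other genes of oxygen-dependent chromatin and protein modifiers are described here in a leukaemia line and in its drug-resistant derivative, with and without the BET inhibitor OTX015. The 31 genes are those of the JmjC-domain oxygenases on a list of symbols, with KDM1A and KDM1B, the LSD amine oxidases, added. Of the 19718 coding genes in the table, 29 matched by symbol, and RIOX1 and RIOX2 were matched by Ensembl identifier because the table lists them under the older names C14orf169 and MINA. After a minimum of 1 FPKM in at least 2 of the 8 libraries, 28 of the 31 were tested, among 11255 genes in all. The table names no unit; its values are taken to be FPKM, fragment counts scaled to transcript length and library size, after quantile normalization.

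The cells were HEL92.1.7, an erythroleukaemia line that stands here for secondary acute myeloid leukaemia, and HEL OTX P/R, a derivative of it selected as persister and resistant to OTX015. The drug, also known as birabresib, occupies the bromodomains of the BET proteins, which read acetylated histones. The 4 groups, with 2 biological replicates in each, were parental untreated, parental after 8 hours in 1000 nM OTX015, P/R untreated, and P/R after the same exposure. How the P/R line was derived, whether it is 1 clone, and whether it was kept in drug before the experiment were not given in the sources used here.

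JmjC enzymes hold an iron atom and use oxygen and 2-oxoglutarate to hydroxylate their target. On a methylated lysine the hydroxylated methyl group falls off, which erases marks of silent chromatin (H3K9 and H3K27 methylation) or of active chromatin (H3K4 and H3K36 methylation), and other family members hydroxylate proteins or RNA without demethylation. The LSD enzymes use flavin instead and remove methyl groups from H3K4. In red cell and platelet precursors, LSD1 (KDM1A) works with the repressor GFI1B. JMJD6 has been described as an arginine demethylase and a lysine hydroxylase of splicing factors, and as taking part in the release of paused RNA polymerase; the title of the series places it in a β-catenin, TCF7L2 and MYC axis.

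Normalization gives each library the same sum, 678133 FPKM, which hides the sequencing depth and leaves the counting error unknown. Across genes, which are not independent replicates, the correlation was 0.996 to 0.997 between replicates and 0.959 to 0.985 between libraries of different groups. All 9 erythroid and all 6 megakaryocyte markers reached 1 FPKM, as did 1 of 4 monocyte markers (LYZ) and 1 of 4 T and NK cell markers (NKG7, at most 1.1 FPKM), and none of the 3 B cell, 3 epithelial and 3 fibroblast markers did. The summed megakaryocyte markers moved with the groups, from 872 to 892 FPKM in untreated to 637 to 643 FPKM in treated parental cells. In the P/R line they went from a range of 1035 to 1036 FPKM to one of 745 to 815 FPKM. The summed erythroid markers were 13390 to 13420 FPKM in untreated and 12470 to 13360 FPKM in treated parental cells. They were 12370 to 12580 FPKM in untreated and 11000 to 12150 FPKM in treated P/R cells. The part of these shifts in the results below was not tested. In bulk RNA a smaller share of cells with a transcript cannot be told apart from less transcript in each cell.

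Because FPKM is scaled to transcript length, levels can be set beside each other between genes. KDM1A was the most abundant of the 31 genes, at a mean of 119.9 FPKM over the 8 libraries, followed by JMJD8 at 62.3 FPKM. KDM5C (29.7 FPKM), KDM2B (28.3 FPKM), JMJD6 (27.2 FPKM) and JMJD4 (26.4 FPKM) came next. The range of JMJD6 over the 8 libraries, 17.9 to 36.3 FPKM, covers those of all 3 of these neighbours in the order, so their ranks are not separated. At the low end of the tested genes were PHF2 at 2.91 FPKM and TYW5 at 2.82 FPKM. KDM4D stayed between 0.507 and 0.869 FPKM, KDM7A between 0.0628 and 0.417 FPKM, and HR, the corepressor Hairless, at no more than 0.0815 FPKM, and these 3 were not tested.

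JMJD6 fell under OTX015 in both lines. In parental cells the level was 30.3 and 31.4 FPKM in the untreated and 19.1 and 17.9 FPKM in the treated libraries (means 30.8 ± 0.818 and 18.5 ± 0.866 FPKM, SD, n = 2). The P/R libraries read 34.2 and 36.3 FPKM untreated and 23.5 and 25 FPKM treated (means 35.2 ± 1.47 and 24.2 ± 1.09 FPKM, SD, n = 2). Every treated library lay below every untreated one, so treated P/R cells were still below untreated parental cells. The treated level was 0.6 of the untreated one in parental and 0.688 in P/R cells. On the scale of log2(FPKM + 1), on which all fold changes below are given, JMJD6 changed by -0.71 (SE 0.07, limma adjusted p = 3.42e-05) in parental and -0.52 (SE 0.07, adjusted p = 0.000269) in P/R cells.

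Under the drug, P/R cells had more JMJD6 than parental cells, whereas the untreated difference did not pass the test. The treated P/R level was 1.31 times the parental one (log2 difference 0.37, SE 0.07, adjusted p = 0.00316). In untreated cells the ratio was 1.14 and the log2 difference 0.19, with a 95% interval from 0.04 to 0.34 (adjusted p = 0.0746), although the libraries of the lines did not overlap. The difference between the lines in the response to OTX015 was 0.19 on the log2 scale, with a 95% interval from -0.03 to 0.40 (adjusted p = 0.571), so a smaller fall in P/R cells was not established. All of these JMJD6 results kept their direction and their side of the threshold in each alternative processing run.

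The genes on either side of JMJD6 did not fall with it. METTL23, which adjoins it on the opposite strand and encodes a methyltransferase-like protein, had means of 25 and 27.9 FPKM in untreated and treated parental cells (log2 change 0.15, adjusted p = 0.119), and rose to 30.7 from 24.3 FPKM in P/R cells (0.32, adjusted p = 0.00597). MXRA7, on the other side of JMJD6, rose in parental cells (0.32, adjusted p = 0.0145) and did not pass in P/R cells (0.13, adjusted p = 0.264). Over the 40 tested genes nearest to JMJD6 in gene order the median change was 0.10 in parental and 0.09 in P/R cells.

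**Figure D1:**
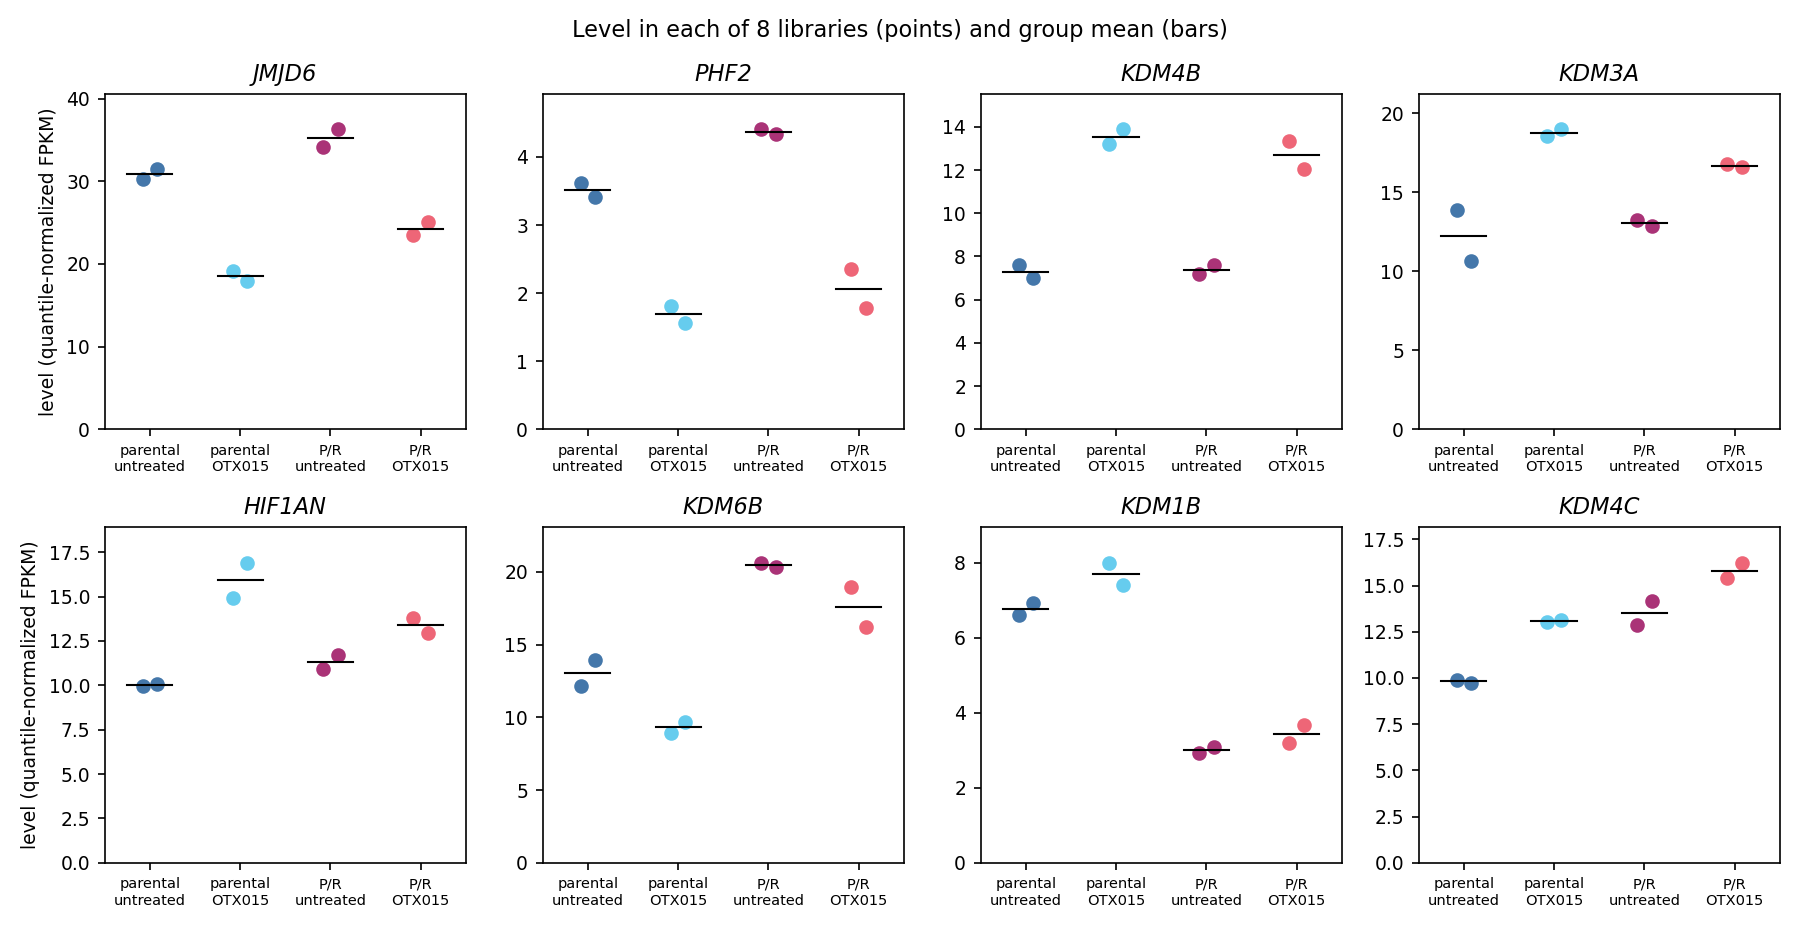
Level in quantile-normalized FPKM (vertical axes, starting at 0) of 8 of the genes in each of the 8 libraries (points), by group (horizontal axes), with bars at the group means. JMJD6 and PHF2 are lower in every treated than in every untreated library, KDM4B is higher, and KDM1B and KDM6B separate the lines, KDM1B at 2.93 to 3.68 FPKM in P/R cells against 6.61 to 8.00 FPKM in parental cells.

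Among the partners of JMJD6 in pause release and splicing, 8 of 14 rose, 2 fell and 4 did not pass in parental cells, and 5 rose, 2 fell and 7 did not pass in P/R cells (median log2 changes 0.19 and 0.09, against 0.02 and 0.01 over all genes tested). Of all genes, 25.7% rose and 24.7% fell in parental cells, and 22.5% and 21.8% in P/R cells. HEXIM1, which holds the elongation kinase P-TEFb inactive, rose from 26.6 to 87.9 FPKM in parental cells, and the P/R means were 23.1 and 64.6 FPKM. The splicing protein gene LUC7L rose from 52.4 to 86.0 FPKM in the former and from 47.3 to 74.2 FPKM in the latter, MEPCE, which caps the 7SK RNA, rose from 66.7 to 82.3 FPKM in parental cells, and U2AF1, a subunit of the 3′ splice site factor, fell from 189.5 to 143 FPKM there. Against parental cells, untreated P/R cells had 1 partner higher and 2 lower (U2AF1 and HEXIM1), and treated P/R cells had 0 higher and 4 lower, among them HEXIM1 and LUC7L3. The shares of all genes higher and lower in P/R cells were 11.7% and 11.9% untreated, and 12.7% and 11.7% treated.

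Of the 28 genes tested, 9 rose, 3 fell and 16 did not pass under OTX015 in parental cells. That is 42.9% of them, where 50.4% of all genes tested passed. In P/R cells 6 rose, 2 fell and 20 did not pass, or 28.6% against 44.3% of all genes. The median log2 change was 0.09 over the 28 genes and 0.02 over all genes in parental cells, and 0.07 and 0.01 in P/R cells. Of the 12 that passed in parental cells and the 8 in P/R cells, 7 were in both, which is 58.3% of the first and 87.5% of the second. Over all genes tested the calls in both lines made up 73.2% and 83.3%. These 7 moved the same way in each line: JMJD6 and PHF2 fell, and KDM3A, KDM4B, KDM4C, KDM6A and JMJD7 rose. The number of calls was sensitive to single libraries: 7 of the 12 passed without parental treated replicate 2, and 4 of the 8 without P/R untreated replicate 2.

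**Figure D2:**
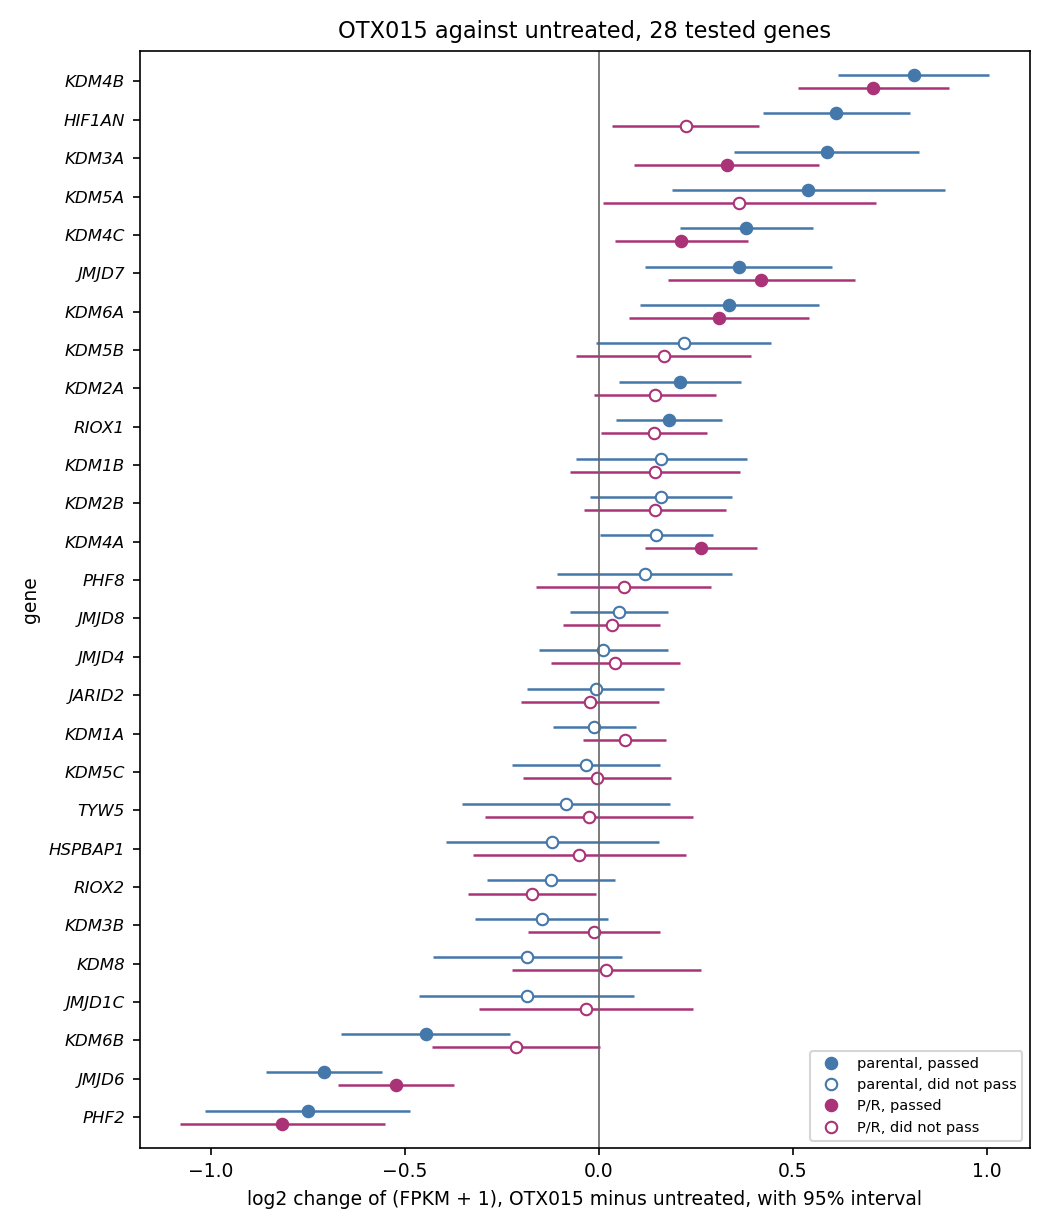
Log2 change of (FPKM + 1), OTX015 minus untreated, with its 95% interval (horizontal axis) for the 28 tested genes (vertical axis, ordered by the change in parental cells). Filled points passed the test at an adjusted p of 0.05 and open points did not; KDM4B is at 0.81 in parental and 0.71 in P/R cells, and PHF2 at -0.75 and -0.81.

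Erasers of H3K9 methylation moved in opposite directions. PHF2, a demethylase of H3K9me2 that also binds H3K4me3, read 3.61 and 3.41 FPKM untreated and 1.81 and 1.56 FPKM treated in parental cells, and 4.40 and 4.34 FPKM untreated and 2.35 and 1.79 FPKM treated in P/R cells. No treated library reached an untreated one. The ratios of treated to untreated means were 0.480 and 0.473 (log2 changes -0.75 and -0.81, SE 0.12 for each, adjusted p = 0.000681 and 0.000533). At this low level the log2 value depends on the pseudocount: with 5 instead of 1 the changes were -0.35 and -0.41. The largest falls over all settings were -1.02 and -1.06.

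KDM3A, a demethylase of H3K9me1 and H3K9me2 that is itself a hypoxia-inducible gene, went the other way. Its levels were 13.9 and 10.6 FPKM untreated and 18.5 and 19.0 FPKM treated in parental cells (log2 change 0.59, SE 0.11, adjusted p = 0.00152). P/R levels were 13.3 and 12.8 FPKM untreated and 16.8 and 16.6 FPKM treated (0.33, SE 0.11, adjusted p = 0.0302). The treated libraries lay above the untreated ones in each line, and the untreated parental replicates were farther apart than those of any other group. The call in P/R cells was lost without any 1 of the 4 P/R libraries, with adjusted p from 0.0806 to 0.119, where all alternatives spanned 0.0113 to 0.119.

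KDM3B, a paralogue of KDM3A, did not respond in a way that passed in either line, but the lines differed under the drug. It read 16.7 and 16.5 FPKM in treated parental and 20.4 and 19.6 FPKM in treated P/R cells (log2 difference 0.25, SE 0.08, adjusted p = 0.0383). That call was lost without any 1 of these 4 libraries (adjusted p from 0.0776 to 0.150; all alternatives 0.0326 to 0.150). JMJD1C and PHF8, the remaining H3K9 genes tested, passed in none of the 5 comparisons, with ranges over the 8 libraries of 3.14 to 4.24 FPKM and 6.66 to 9.11 FPKM.

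Of KDM4A, KDM4B and KDM4C, which demethylate both H3K9 and H3K36, KDM4B and KDM4C rose under OTX015 in both lines and KDM4A in P/R cells. KDM4B went from 7.59 and 6.98 FPKM to 13.2 and 13.9 FPKM in parental cells, and from 7.18 and 7.59 FPKM to 13.4 and 12.0 FPKM in P/R cells. This was the largest rise among the 28 genes in each line, with treated means 1.86 and 1.72 times the untreated ones (log2 changes 0.81 and 0.71, SE 0.09 for each, adjusted p = 6.93e-05 and 0.000213). None of the 40 nearest tested genes on the chromosome rose as much in either line, and the difference in KDM4B between the lines did not pass (log2 0.02 untreated, 95% interval -0.18 to 0.21, and -0.09 treated, 95% interval -0.28 to 0.11; adjusted p = 0.911 and 0.516).

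KDM4C rose as well and was also higher in the resistant line. Parental cells had 9.90 and 9.75 FPKM untreated and 13.0 and 13.1 FPKM treated (log2 change 0.38, SE 0.08, adjusted p = 0.00268). The P/R line had 12.9 and 14.1 FPKM untreated and 15.4 and 16.2 FPKM treated (0.21, SE 0.08, adjusted p = 0.0454). Untreated P/R cells thus stood at about the level of treated parental cells. Of the calls on this gene, the one in P/R cells under OTX015 is the least firm: it was lost with a replicate block (adjusted p = 0.0537) and without any 1 of the 4 P/R libraries (0.0542 to 0.263; all alternatives 0.0365 to 0.263).

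KDM4A rose in P/R cells, from 19.7 and 19.3 FPKM to 23.6 and 23.7 FPKM (log2 change 0.26, SE 0.06, adjusted p = 0.00899). In parental cells it read 19.8 and 18.3 FPKM untreated and 21.2 and 21.3 FPKM treated, which did not pass (0.15, adjusted p = 0.0811). The response did not differ between the lines by a margin that passed (0.12, 95% interval -0.09 to 0.32, adjusted p = 0.745). Leaving out P/R untreated replicate 2 ended the call in P/R cells (adjusted p = 0.0570, the highest of alternatives that began at 0.00854).

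Promoter sequence was available from RefSeq (GRCh38.p14) for 27 of the 31 genes, in 38 windows of 300 bases around annotated starts. JMJD6, HR, RIOX1 and RIOX2 had no entry. The windows were searched on both strands for 3 motifs. CACGTG is the E-box bound by MYC with MAX. ACGTG, which each CACGTG also contains, is 1 form of the core of the hypoxia response element. The form GCGTG was not searched for. CTTTGNT takes in CTTTGAT and CTTTGTT, forms of the core bound by TCF and LEF factors, but misses CTTTGAA and admits CTTTGCT. Matches in HSPBAP1 and KDM6A read CTTTGTT, and those in KDM1A, TYW5 and PHF8 read CTTTGCT. The CTTTGNT counts are therefore not counts of TCF and LEF sites. CACGTG occurred in 5 of the 38 windows (HSPBAP1, KDM4C, JMJD1C, KDM4B and KDM6A) and in 7.26% of all 35116 windows. ACGTG occurred in 9 of the 38 and 21.4% of all windows, and CTTTGNT in 5 of the 38 and 15.4% of all windows. Of the genes called under OTX015 in both lines, KDM4B, KDM4C and KDM6A held CACGTG, JMJD6 had no window, and PHF2, which fell, held none of the 3 motifs, as did KDM3A and JMJD7, which rose. HSPBAP1, with 3 CACGTG matches, and JMJD1C, with 1 in 1 of its windows, passed in none of the 5 comparisons. The windows of KDM4B, KDM4C, KDM6A and PHF2 are shown, as promoters of genes that rose or fell in both lines with and without the E-box. They lie at chr19:4968863-4969162 (KDM4B), chr9:6757723-6758022 (KDM4C), chrX:44872938-44873237 (KDM6A) and chr9:93576334-93576633 (PHF2), all on the plus strand, with motif matches on either strand in capitals.
KDM4B: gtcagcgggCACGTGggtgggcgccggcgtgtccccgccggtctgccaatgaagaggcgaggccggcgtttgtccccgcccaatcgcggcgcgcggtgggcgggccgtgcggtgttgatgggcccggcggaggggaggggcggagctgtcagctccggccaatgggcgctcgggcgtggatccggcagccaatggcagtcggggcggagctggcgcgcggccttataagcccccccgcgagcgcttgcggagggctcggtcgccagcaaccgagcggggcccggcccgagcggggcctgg
KDM4C: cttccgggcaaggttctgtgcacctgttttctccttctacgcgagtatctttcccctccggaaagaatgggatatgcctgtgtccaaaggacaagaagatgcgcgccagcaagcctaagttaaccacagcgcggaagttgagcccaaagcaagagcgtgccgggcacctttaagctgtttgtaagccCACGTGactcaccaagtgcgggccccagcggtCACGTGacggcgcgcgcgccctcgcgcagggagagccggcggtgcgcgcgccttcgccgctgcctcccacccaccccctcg
KDM6A: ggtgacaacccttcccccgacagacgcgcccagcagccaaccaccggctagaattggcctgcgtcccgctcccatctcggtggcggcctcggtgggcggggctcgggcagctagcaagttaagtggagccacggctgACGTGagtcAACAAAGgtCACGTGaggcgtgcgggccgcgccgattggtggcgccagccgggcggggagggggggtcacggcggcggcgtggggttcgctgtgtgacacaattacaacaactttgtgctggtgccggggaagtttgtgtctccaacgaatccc
PHF2: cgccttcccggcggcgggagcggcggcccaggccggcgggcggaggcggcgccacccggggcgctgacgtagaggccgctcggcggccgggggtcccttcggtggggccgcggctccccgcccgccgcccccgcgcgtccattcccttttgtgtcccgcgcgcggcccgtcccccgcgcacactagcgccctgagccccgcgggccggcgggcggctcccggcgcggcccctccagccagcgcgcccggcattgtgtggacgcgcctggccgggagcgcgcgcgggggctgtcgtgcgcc
KDM4C carries 2 CACGTG matches close together, KDM4B 1 near the upstream end, and KDM6A 1 beside a reverse-strand CTTTGNT match. The PHF2 window is 83.7% G and C, against 76.7% for KDM4B, 62.7% for KDM4C and 66.3% for KDM6A. A match describes the letters in the window; binding was not measured here.

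The H3K36 demethylases KDM2A and KDM2B, which carry a CpG-binding zinc finger, gave 1 call between them. KDM2A read 21.9 and 20.0 FPKM untreated and 24.2 and 24.5 FPKM treated in parental cells (log2 change 0.21, SE 0.07, adjusted p = 0.0318). Without parental untreated replicate 2 or parental treated replicate 1 or 2, that call was lost (adjusted p = 0.181, 0.0900 and 0.117; all alternatives 0.0266 to 0.181). KDM2B, whose untreated parental libraries differed from each other (25.8 and 30.6 FPKM), passed in no comparison. Of 9 partners of KDM2B in the polycomb complex PRC1.1, 1 rose in parental and 2 rose in P/R cells, with none lower; SKP1, an adaptor shared with ubiquitin ligases, rose from 157 to 221 FPKM and from 150.3 to 219 FPKM. BCOR and BCORL1, its corepressor subunits, were the 2 of 9 that were higher in P/R than in parental cells, both untreated and treated (BCOR 16.8 and 22.5 FPKM in untreated parental and P/R cells). Over all genes tested, 25.7% rose and 24.7% fell in parental cells under OTX015, and 22.5% and 21.8% in P/R cells. Between the lines the shares higher and lower were 11.7% and 11.9% untreated, and 12.7% and 11.7% treated.

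The paired H3K27 demethylases took different courses. KDM6B (JMJD3), an inducible enzyme, fell under OTX015 in parental cells, from 12.2 and 13.9 FPKM to 8.91 and 9.71 FPKM (log2 change -0.45, SE 0.10, adjusted p = 0.00408). P/R cells had 20.6 and 20.4 FPKM untreated and 19.0 and 16.2 FPKM treated, which did not pass (-0.21, adjusted p = 0.101). The difference in response was 0.23, with a 95% interval from -0.07 to 0.54 (adjusted p = 0.634), so the responses were not shown to differ. In each P/R library, KDM6B was above every parental library.

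KDM6A (UTX), an X-linked enzyme of the MLL3 and MLL4 complexes, rose modestly. Its levels were 4.20 and 4.93 FPKM untreated and 6.12 and 5.92 FPKM treated in parental cells (log2 change 0.34, SE 0.10, adjusted p = 0.0219). P/R cells had 5.29 and 4.59 FPKM untreated and 6.31 and 6.39 FPKM treated (0.31, SE 0.10, adjusted p = 0.0349). In each line the treated libraries were above the untreated ones. The parental call was lost without parental untreated replicate 1 or treated replicate 1 or 2 (adjusted p = 0.129, 0.0915 and 0.0659; all alternatives 0.0159 to 0.129), and the P/R call without P/R untreated replicate 2 or treated replicate 1 or 2 (0.206, 0.0962 and 0.109; all alternatives 0.0252 to 0.206). With a pseudocount of 5 the changes were 0.20 and 0.19, and the largest over all settings were 0.43 and 0.39.

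Of 9 other subunits of the KDM6A complexes, 0 rose, 4 fell and 5 did not pass in parental cells. ASH2L, a core subunit, fell there from 95.3 to 75.9 FPKM. KMT2D, the MLL4 methyltransferase, fell from 20.5 to 18.0 FPKM. The calls on KMT2D and NCOA6 were close to the threshold (limma adjusted p = 0.0446 and 0.0476). The P/R means of KMT2D were 17.9 FPKM untreated and 19.9 FPKM treated, a change that did not pass. In P/R cells 1 rose (DPY30), 0 fell and 8 did not pass. Between the lines 0 passed in untreated cells, and 2 were higher in treated P/R cells (ASH2L and PAGR1). The shares of all genes that rose and fell under OTX015 were 25.7% and 24.7% in parental cells, and 22.5% and 21.8% in P/R cells. Those higher and lower in P/R cells were 11.7% and 11.9% untreated, and 12.7% and 11.7% treated.

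The KDM5 genes, the H3K4 demethylases of the JmjC family, gave 1 call. KDM5A, which binds the retinoblastoma protein, rose in parental cells from 8.91 and 10.6 FPKM to 14.3 and 14.9 FPKM (log2 change 0.54, SE 0.16, adjusted p = 0.0173). P/R replicates disagreed, with 9.78 and 7.28 FPKM untreated and 12.9 and 9.58 FPKM treated, so the groups overlapped and the change did not pass (0.36, adjusted p = 0.0876). The parental call was lost without parental untreated replicate 1 or treated replicate 1 or 2 (adjusted p = 0.106, 0.0521 and 0.0773; all alternatives 0.00433 to 0.106). CCDC77, whose span overlaps that of KDM5A on the opposite strand, also rose in parental cells (0.43, limma adjusted p = 0.00217). It did not pass in P/R cells (0.18, limma adjusted p = 0.106). Without knowledge of strand in the counting, reads from the stretch that both genes share cannot be told apart. How much of either transcript lies in that stretch was not examined. KDM5B, at 11.6 to 15.5 FPKM, and KDM5C, at 27 to 32.6 FPKM, passed in no comparison.

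JARID2, a JmjC protein without demethylase activity that guides the H3K27 methyltransferase PRC2, stayed between 8.16 and 9.83 FPKM and passed in no comparison. In PRC2 itself 3 of 12 genes rose, 3 fell and 6 did not pass in parental cells, and 2 rose, 3 fell and 7 did not pass in P/R cells. EED, the subunit that reads H3K27me3, fell from 30.3 to 19.5 FPKM and from 24.5 to 18.5 FPKM, whereas the catalytic genes EZH1 and EZH2 rose in parental cells, from 5.62 to 8.81 FPKM and from 24.6 to 30.4 FPKM. P/R cells had 4 of 12 lower and 0 higher than parental cells, untreated and treated alike, with SUZ12 at 17.6 FPKM in parental and 11.6 FPKM in P/R untreated cells. Over all genes tested, 11.9% were lower and 11.7% higher untreated, and 11.7% and 12.7% treated. Under OTX015, 25.7% of all genes rose and 24.7% fell in parental cells, and 22.5% and 21.8% in P/R cells. The differences of JARID2 itself between the lines were -0.18 untreated and -0.20 treated, which did not pass (adjusted p = 0.131 and 0.104).

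The LSD enzymes did not respond to OTX015 by a margin that passed, and differed between the lines. KDM1B (LSD2), which acts in gene bodies, read 6.61 and 6.94 FPKM in untreated parental cells against 2.93 and 3.08 FPKM in untreated P/R cells. Under OTX015 the levels were 8.00 and 7.40 FPKM against 3.19 and 3.68 FPKM. The P/R level was 0.443 of the parental one untreated and 0.446 treated (log2 differences -0.96 and -0.97, SE 0.10 for each, adjusted p = 0.000130 and 0.000109). This was the largest difference between the lines among the 28 genes in each condition. With a pseudocount of 5 it was -0.56 and -0.59, and its largest values over all settings were -1.147 and -1.145.

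KDM1A (LSD1) differed far less. It read 129.7 and 123 FPKM in untreated parental and 111 and 111 FPKM in untreated P/R cells (log2 difference -0.19, SE 0.05, adjusted p = 0.0205). Under OTX015 it read 129 and 122 FPKM in parental and 114 and 119 FPKM in P/R cells, which did not pass (-0.11, adjusted p = 0.137). The untreated call was lost without the variance trend (adjusted p = 0.0737) and without parental untreated replicate 1 or P/R untreated replicate 1 or 2 (0.126, 0.107 and 0.0957; all alternatives 0.0174 to 0.126).

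Genes of the LSD1 complexes were mixed under OTX015, with 5 of 17 higher, 2 lower and 10 that did not pass in parental cells, and 3, 3 and 11 in P/R cells. RCOR1, the CoREST scaffold that couples LSD1 to nucleosomes, rose in parental cells from 18.9 to 24.4 FPKM, and the zinc finger gene ZMYM3 fell from 20.9 to 14.2 FPKM. Between the lines 4 were higher and 1 lower untreated, and 3 higher and 1 lower treated. The lower gene was GFI1, at 4.38 FPKM in untreated parental and 1.30 FPKM in untreated P/R cells, whereas its paralogue GFI1B was higher in untreated P/R cells, at 225 against 186 FPKM. The shares of all genes that rose and fell under OTX015 were 25.7% and 24.7% in parental cells, and 22.5% and 21.8% in P/R cells. Those higher and lower in P/R cells were 11.7% and 11.9% untreated, and 12.7% and 11.7% treated.

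Among the protein and RNA hydroxylases, HIF1AN, which hydroxylates an asparagine of hypoxia-inducible factor and so blocks its coactivator, had the largest rise in parental cells. It went there from 9.99 and 10.1 FPKM to 14.9 and 16.9 FPKM (log2 change 0.61, SE 0.08, adjusted p = 0.000323). The P/R libraries had 10.9 and 11.7 FPKM untreated and 13.8 and 12.9 FPKM treated, a change that did not pass (0.22, adjusted p = 0.0554). The difference in response was -0.39, with a 95% interval from -0.66 to -0.12 and an unadjusted p of 0.00941, which did not pass over all genes (limma adjusted p = 0.349). NDUFB8, which overlaps HIF1AN on the opposite strand, had a change of -0.04 in parental cells, which did not pass (limma adjusted p = 0.589). AL133352.1, another coding gene that overlaps HIF1AN on the opposite strand, is also in the data, and its change is not given here.

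JMJD7, a lysyl hydroxylase of GTP-binding proteins, rose in both lines. It read 7.75 and 6.84 FPKM untreated and 9.79 and 9.48 FPKM treated in parental cells (log2 change 0.36, SE 0.11, adjusted p = 0.0191), and 6.11 and 7.61 FPKM untreated and 9.44 and 9.50 FPKM treated in P/R cells (0.42, SE 0.11, adjusted p = 0.0110). The readthrough gene JMJD7-PLA2G4B shares its exons and rose alongside (0.38 and 0.43, adjusted p = 0.0350 and 0.0234), so reads of the pair may have been divided between them. The parental call was lost with no filter (adjusted p = 0.0502) and without parental untreated replicate 2 or treated replicate 1 or 2 (0.113, 0.0824 and 0.0594; all alternatives 0.0154 to 0.113), and the P/R call without P/R untreated replicate 1 (0.0896; all alternatives 0.00674 to 0.0896).

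RIOX1 and RIOX2, which hydroxylate histidines of ribosomal proteins, moved in small steps. RIOX1 rose in parental cells from 24.8 and 25.3 FPKM to 27.6 and 29.5 FPKM (log2 change 0.18, SE 0.06, adjusted p = 0.0315). That call was lost without parental untreated replicate 1 or 2 or treated replicate 2 (adjusted p = 0.112, 0.0734 and 0.186; all alternatives 0.0238 to 0.186). RIOX2 was lower in treated P/R cells, at 13.7 and 14.4 FPKM, than in treated parental cells, at 17.5 and 16.0 FPKM (-0.23, SE 0.07, adjusted p = 0.0448). This was lost with a replicate block (adjusted p = 0.0635) and without any 1 of these 4 libraries (0.0563 to 0.242; all alternatives 0.0430 to 0.242).

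The other hydroxylase genes passed in none of the 5 comparisons. JMJD8, a protein of the endoplasmic reticulum, kept to 57.5 to 66.4 FPKM and JMJD4, which hydroxylates the translation termination factor eRF1, to 23.5 to 28.2 FPKM. KDM8 (JMJD5) lay between 3.61 and 4.86 FPKM, HSPBAP1 between 2.88 and 3.74 FPKM, and TYW5, a tRNA hydroxylase, between 2.45 and 3.52 FPKM. With JMJD1C, PHF8, KDM2B, KDM5B, KDM5C and JARID2, they make up the 11 tested genes that passed nowhere, while 17 passed in at least 1 comparison.

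Between the lines, KDM1B was lower and KDM6B and KDM4C were higher in P/R cells in both conditions. Untreated, 2 were higher in P/R cells (KDM6B and KDM4C), 2 lower (KDM1B and KDM1A) and 24 did not pass, or 14.3% against 23.5% of all genes tested (11.7% higher and 11.9% lower). Under OTX015, 4 were higher (KDM6B, JMJD6, KDM3B and KDM4C), 2 lower (KDM1B and RIOX2) and 22 did not pass, or 21.4% against 24.4% of all genes (12.7% higher and 11.7% lower). The 3 genes called in both conditions are 75% of the untreated and 50% of the treated calls, where the same shares over all genes tested were 67.9% and 65.4%. Under OTX015 the count fell to 3 without any 1 of the 4 treated libraries.

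**Figure D3:**
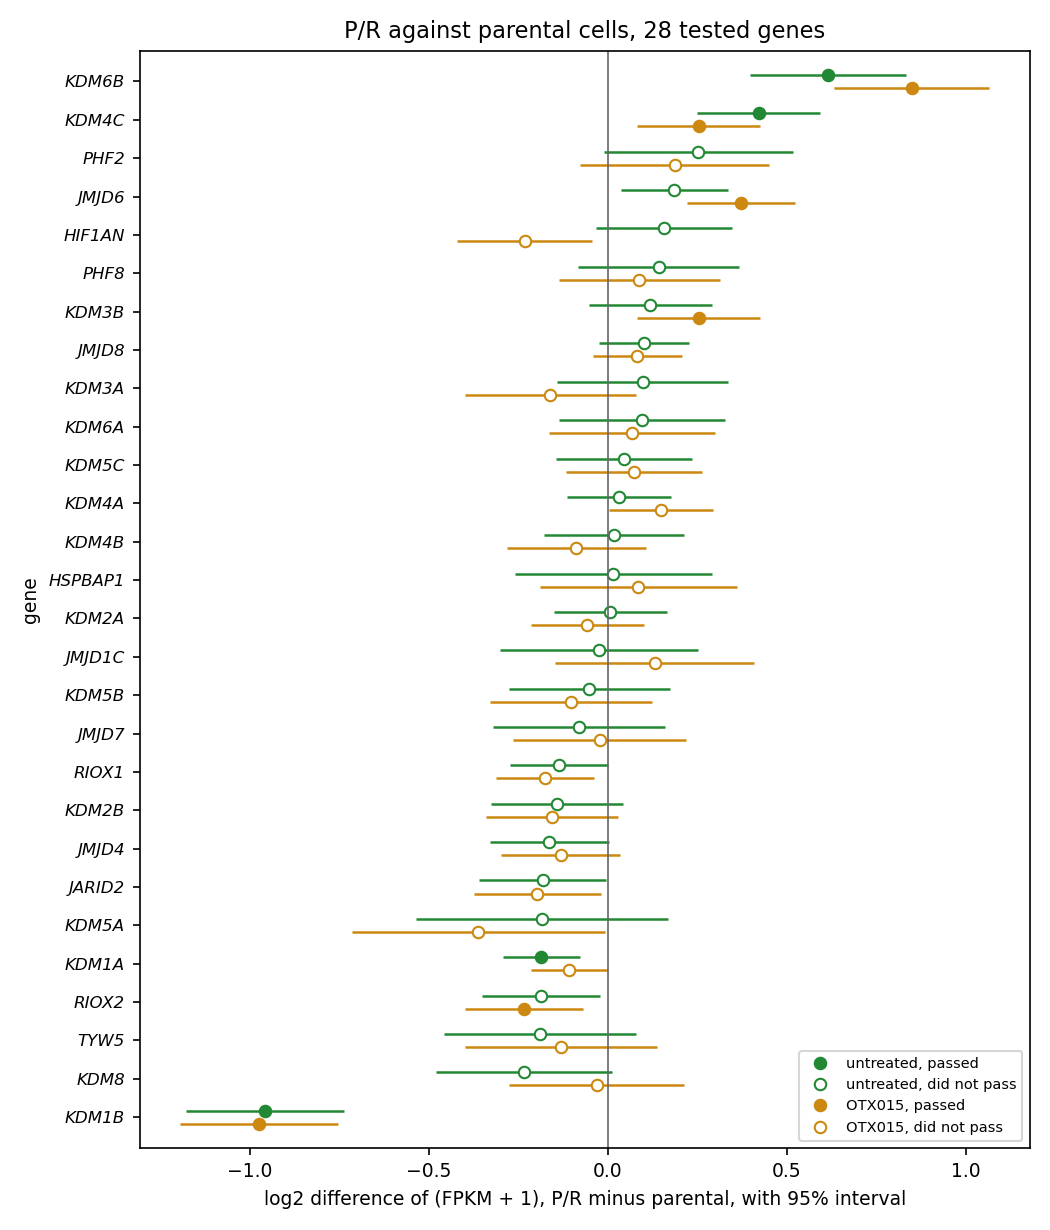
Log2 difference of (FPKM + 1), P/R minus parental, with its 95% interval (horizontal axis) for the 28 tested genes (vertical axis, ordered by the difference in untreated cells). Filled points passed the test and open points did not; KDM1B lies at -0.96 untreated and -0.97 under OTX015, and KDM6B at 0.61 and 0.85.

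KDM6B had the largest excess in P/R cells, 1.57 times the parental level untreated and 1.89 times under OTX015 (log2 differences 0.61 and 0.85, SE 0.10 for each, adjusted p = 0.00159 and 0.000225). KDM4C was the second in untreated cells, at 1.37 times the parental level, and was at 1.21 times under OTX015 (0.42 and 0.25, SE 0.08 for each, adjusted p = 0.00340 and 0.0383). Without any 1 of the 4 treated libraries, the treated KDM4C call was lost (adjusted p from 0.0722 to 0.148; all alternatives 0.0334 to 0.148), as it was with the crossed replicate block (0.0556) and with only the 4 treated libraries fitted (0.0604).

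The chromosomal neighbours of KDM6B, KDM4C and KDM1B gave different pictures. Around KDM6B, on chromosome 17, 33 of the 40 nearest tested genes were also higher in untreated P/R cells and 0 were lower, with a median of 0.53 against 0.61 for KDM6B itself. Under OTX015, 34 of 40 were higher, with a median of 0.58 against 0.85. By direction the neighbours moved with KDM6B, and by their median they came near its size in untreated cells.

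The neighbours of KDM4C and KDM1B centred near 0. Around KDM4C, on chromosome 9, the 39 nearest tested genes had a median of -0.03 untreated, and 2 of them exceeded the 0.42 of KDM4C. Around KDM1B, on chromosome 6, the median of 40 was -0.01 and none was lower than KDM1B. However, TPMT, the thiopurine methyltransferase gene next to KDM1B on the opposite strand, was lower by almost the same amount. Its mean was 5.96 FPKM in parental and 2.65 FPKM in P/R untreated cells (log2 difference -0.93, SE 0.10, adjusted p = 0.000204), and the treated difference was -0.87 (adjusted p = 0.000270). DEK, on the other side of KDM1B, had -0.04 (adjusted p = 0.729). For JMJD6, on chromosome 17, the median of its 40 neighbours was -0.02 beside its own 0.19, which did not pass. The genes directly beside JMJD6 differed from each other, with MXRA7 at 0.62 and METTL23 at -0.04.

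**Figure D4:**
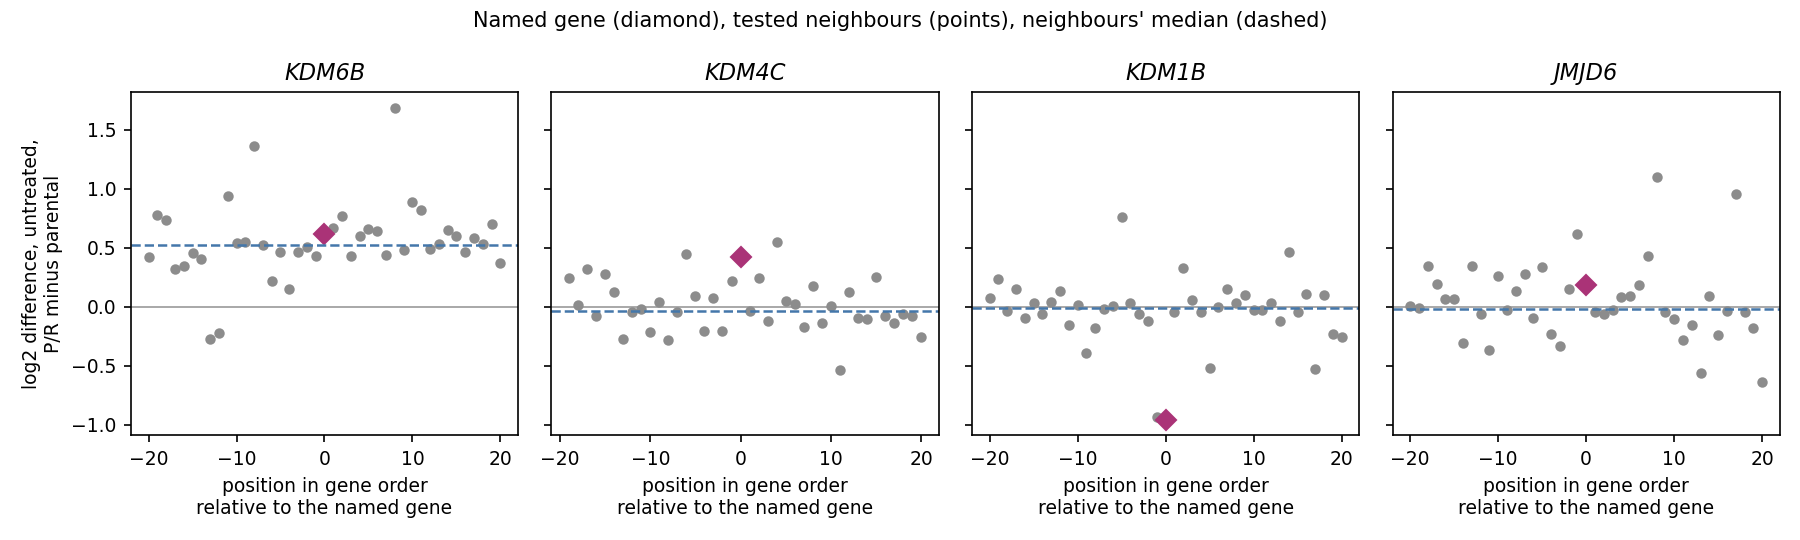
Log2 difference in untreated cells, P/R minus parental (vertical axis), of KDM6B, KDM4C, KDM1B and JMJD6 (diamonds) and of up to 20 tested genes on each side in gene order (points), with the neighbours' median dashed. The neighbours of KDM6B centre on 0.53, those of the other 3 genes near 0, and 1 point, TPMT, lies beside KDM1B. MXRA7, directly beside JMJD6, is at 0.62.

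The difference in the response to OTX015 between the lines passed in limma, at an adjusted p of 0.05, for 0 of the 28 genes. Over all genes 9 passed, or 0.0800% (0.0622% higher and 0.0178% lower). At an unadjusted p under 0.05, 1 of the 28 genes (HIF1AN) and 9.60% of all genes passed. The 3 largest differences after HIF1AN were -0.26 for KDM3A, 0.23 for KDM6B and 0.20 for KDM8, each with an interval that includes 0.

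Enzymes that write histone lysine methylation, the counterparts of these erasers, changed in both directions. Of 24 tested, 3 rose, 5 fell and 16 did not pass in parental cells, 4 rose, 5 fell and 15 did not pass in P/R cells, and 0 passed between the lines in either condition. Over all genes tested, 25.7% rose and 24.7% fell in parental cells, and 22.5% and 21.8% in P/R cells. Between the lines 23.5% of all genes passed untreated and 24.4% treated. SMYD5 fell from 42.7 to 26.4 FPKM and from 36.7 to 23.8 FPKM, and KMT5C, which trimethylates H4K20, rose from 22.3 to 31.4 FPKM and from 25.4 to 32.8 FPKM. SETD2, the H3K36 trimethylase whose mark KDM4A, KDM4B and KDM4C remove, rose in parental cells from 12.0 to 15.9 FPKM.

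Other enzymes that use the same cofactor, the 2-oxoglutarate dioxygenases outside the JmjC family, were called in both directions, with 7 of 26 tested higher, 7 lower and 12 that did not pass in parental cells, and 6, 5 and 15 in P/R cells. ALKBH5, which demethylates m6A in RNA, rose from 33.8 to 52.3 FPKM and from 46.7 to 78.1 FPKM, and ALKBH8, a tRNA modifier, fell in parental cells from 2.98 to 1.05 FPKM. P/R cells had 2 higher and 0 lower untreated (ALKBH5 and PLOD3), and 2 higher and 1 lower treated. The shares of all genes that rose and fell under OTX015 were 25.7% and 24.7% in parental cells, and 22.5% and 21.8% in P/R cells. Those higher and lower in P/R cells were 11.7% and 11.9% untreated, and 12.7% and 11.7% treated.

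Genes of 2-oxoglutarate, succinate and fumarate metabolism, which supply or compete with the cofactor, gave 7 higher, 2 lower and 14 that did not pass of 23 in parental cells, and 8, 2 and 13 in P/R cells. SDHA, a subunit of succinate dehydrogenase, rose from 77.0 to 118 FPKM in parental cells and OGDH, which consumes 2-oxoglutarate, from 36.8 to 54.9 FPKM. Between the lines 3 were higher and 1 lower untreated, and 6 higher and 2 lower treated. Among all genes tested, 25.7% rose and 24.7% fell under OTX015 in parental cells, and 22.5% and 21.8% in P/R cells. The shares higher and lower in P/R cells were 11.7% and 11.9% untreated, and 12.7% and 11.7% treated.

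The list of hypoxia-inducible genes, which also holds the factor genes HIF1A, EPAS1 and ARNT, went both ways under OTX015. In parental cells 6 of 18 tested rose, 5 fell and 7 did not pass, and in P/R cells 6, 4 and 8. The shares of all genes that rose and fell were 25.7% and 24.7% in parental cells, and 22.5% and 21.8% in P/R cells. NDRG1 rose in parental cells from 1.56 to 7.22 FPKM and the glucose transporter SLC2A1 from 203 to 306 FPKM, whereas VEGFA fell from 8.22 to 4.98 FPKM and the kinase PDK1 from 11.2 to 7.27 FPKM. In P/R cells 9 of 18 were higher and 0 lower than in parental cells untreated, and 7 higher and 2 lower treated (median log2 differences 0.19 and 0.20, against -0.01 for both over all genes tested). Of all genes, 11.7% were higher and 11.9% lower untreated, and 12.7% and 11.7% treated. VEGFA led, at 20.6 against 8.22 FPKM untreated (log2 difference 1.23, adjusted p = 8.01e-06). HIF1AN itself did not pass between the lines (0.16 untreated and -0.23 treated, adjusted p = 0.223 and 0.0754). EGLN3 and P4HA1 belong to both this list and that of the dioxygenases, and the difference in response between the lines passed for 0 genes of the 9 lists. The list medians ran from -0.01 (LSD1 complexes) to 0.19 (JMJD6 partners) under OTX015 in parental cells and from -0.05 (histone lysine methyltransferases) to 0.09 (JMJD6 partners) in P/R cells. Between the lines they ran from -0.13 untreated and -0.17 treated (PRC2 for both) to the values of the hypoxia-inducible genes.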

How the data were processed

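Total RNA, treated with DNase, was sequenced from 2 biological replicates in each of 4 groups, treated independently per the labels. The deposited table holds 19718 coding genes in 8 libraries. Its header names no unit; the deposited values are taken to be FPKM from the tools named, TopHat2 2.0 and Cufflinks 2.0 on hg19, per the submitters' processing notes. Each tool's role, the annotation, RNA selection and strand were not given in the sources used here. Deposited FPKM were already quantile normalized: once sorted, the libraries differ from each other by no more than 0.136%. This removes global changes in RNA content.

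Genes with at least 1 FPKM in at least 2 libraries entered a model of 4 group means on log2(FPKM + 1), fitted in limma 3.58.1 (R 4.3.3) with a trended prior (4 residual degrees of freedom, 5.23 from the prior). P-values are two-sided, adjusted by Benjamini-Hochberg over 11255 genes, with a threshold of 0.05, and every adjusted p printed is from limma. An exact permutation test of 2 against 2 cannot go below 0.333. The labels do not say that replicate numbers pair the samples. Deviations of same-numbered libraries correlated at -0.12 to 0.10, which shows no strong shared effect but cannot exclude a pairing. Gene order came from GENCODE 29, which placed 11227 of the tested genes.

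The genes and the 9 lists were chosen with earlier results of these data known. Values are given for JMJD6 and each member that passed with a log2 change of at least 0.3 in size; from each list up to 4 genes with the smallest adjusted p are named. Alternatives were 16 other settings, including 8 that leave out a library, and a crossed block added after seeing the data.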

Additional observations from a re-analysis of the deposited data

How the results depend on the processing

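Of the 5 JMJD6 results and the 27 calls on other genes, 0 changed direction in any setting. Results that did not pass for the other members, and those of the 9 lists, were not examined for this. Of 27 calls on genes other than JMJD6, 13 held in every setting run and 14 were lost in at least 1, by the libraries named beside each or by the settings below. Leaving out 1 library at a time, the number of the 28 genes that passed ran from 7 to 10 (12 in full) for OTX015 in parental cells, 4 to 6 (8 in full) in P/R cells, 3 to 4 (4 in full) between untreated lines and was 3 each time (6 in full) between treated lines; a lone library was assumed to vary like the other groups. With no filter, 5 passed for OTX015 in P/R cells; the calls lost were those on JMJD7 and KDM5A in parental cells, KDM3A, KDM4C and KDM6A in P/R cells, and KDM3B and RIOX2 between treated lines. A fit of only the groups compared ended those on KDM2A and RIOX1 in parental cells, KDM4C in P/R cells, and KDM4C and RIOX2 between treated lines. With 1 library left out at a time, JMJD6 ran from -0.75 to -0.66 in parental cells, -0.57 to -0.48 in P/R cells, 0.14 to 0.23 between untreated lines, 0.33 to 0.42 between treated lines and 0.14 to 0.23 for the difference in response; over all settings the ranges were -0.75 to -0.61, -0.57 to -0.46, 0.14 to 0.23, 0.31 to 0.42 and 0.14 to 0.23. With a replicate block, 12, 7, 4, 5 and 0 genes passed in the 5 comparisons, and JMJD6 had -0.71 and -0.52; the block ended the calls on KDM4C in P/R cells and RIOX2 between treated lines and no other. With the numbers of the treated P/R libraries crossed, a choice made after seeing the data, 4 passed between treated lines, and the calls on KDM4C and RIOX2 were lost (adjusted p = 0.0556 and 0.0581). Over all genes, calls between untreated lines fell from 2647 to 1614 and 1689 without P/R untreated replicate 1 or 2, and between treated lines from 2747 to 1763 without parental treated replicate 1. The number of all genes that differed in response was 2 to 29 over the settings (9 in full). PHF2 could not be tested at a mean of at least 5 FPKM. A fit of only the groups compared was not run for the difference in response. The causes were not tested.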
